A study of Mus musculus with 8 samples.

Results

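The protein arginine methyltransferases (PRMTs) are the enzymes that write methylarginine, the mark that TDRD3 reads through its Tudor domain. The 8 PRMT genes described here, Prmt1, Prmt2, Prmt3, Carm1, Prmt5, Prmt6, Prmt7 and Prmt9, were taken by gene name from a table of 11911 genes, and all 8 passed the filter on low counts that left 11317 genes for testing. RNA was measured in induced regulatory T cells (iTregs), made by culturing naïve CD4+ T cells from mouse spleen for 36 h with TGF-β, antibodies to CD3 and CD28, and blocking antibodies to IFNγ and IL-4. There were 4 libraries of Foxp3 YFP-Cre cells, labelled WT1 to WT4, and 4 of Tdrd3 fl/fl/Foxp3 YFP-Cre cells, labelled KO1 to KO4, all on a C57BL/6J background. Both genotypes carry the Cre allele. Cre is made from the Foxp3 locus, so floxed Tdrd3 can be deleted only in cells that have switched Foxp3 on, and the sources used here name no sort for YFP+ cells before RNA was taken. The values are therefore taken as bulk RNA levels over all cells of a culture. Ribosomal RNA was removed before sequencing.

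PRMTs transfer methyl groups from S-adenosylmethionine to arginine side chains and fall into types by their product. Type I enzymes make asymmetric dimethylarginine, type II enzymes make symmetric dimethylarginine, and PRMT7, the type III enzyme, stops at monomethylarginine. TDRD3 binds asymmetric dimethylarginine best, including the mark that PRMT1 puts on histone H4 and the mark that CARM1 puts on histone H3, and it has no methyltransferase activity of its own. Several PRMTs are induced when T cells are activated, and PRMT1 and PRMT5 both have known roles in helper and regulatory T cells.

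The counts of a library summed to between 13258239 and 16001676, with a median of 14239564, and levels are given as normalized CPM (counts scaled to a common library size), where 3 counts correspond to 0.188 to 0.225 CPM. Tdrd3 RNA was measured at 18.8, 15.1, 9.95 and 17.7 CPM in the libraries labelled WT1 to WT4 and at 13.7, 10.7, 12.9 and 11.1 CPM in those labelled KO1 to KO4. The library labelled WT3 therefore had less Tdrd3 RNA than any KO library. The log2 fold change of Tdrd3, KO over WT as for every fold change below, was −0.35 (SE 0.155, adjusted p = 0.496; unless another test is named, this and every adjusted p below is edgeR's, from the quasi-likelihood test, corrected by Benjamini and Hochberg's method across the 11317 genes). Each count covers a whole gene, so the floxed exons cannot be seen on their own. Foxp3, the lineage factor of regulatory T cells, stood at 109.9 ± 12.5 CPM (SD, n = 4) in WT and 88.4 ± 13.3 CPM (SD, n = 4) in KO libraries (log2 fold change −0.31, adjusted p = 0.152), a difference that passed the test without KO2 (adjusted p = 0.0104) and without WT4 (adjusted p = 0.0337). Without KO1 and KO4 it was −0.15 (adjusted p = 1.00). Foxp3 did not pass in DESeq2 (adjusted p = 0.425) or without any other single library (adjusted p from 0.199 to 0.591). Of all tested genes, 30 passed in edgeR with all 8 libraries, against 162 without KO2 and 90 without WT4. The count fell to between 6 and 19 when any other single library was left out. T cell markers summed to between 2359.5 and 2538 CPM in every library, against at most 3.71 CPM for B cell, 4.48 CPM for NK cell, 1.22 CPM for myeloid and 0.911 CPM for red cell markers. Those of CD8 T cells summed to 7.86 to 21.9 CPM in WT and 6.99 to 9.30 CPM in KO libraries, and Cd8a stood at 11.3 CPM in the library labelled WT3 but at 0.436 to 1.37 CPM in the other 7.

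No PRMT gene passed the test between genotypes. At an adjusted p below 0.05, 0 of the 8 passed edgeR's test, against 0.265% of all tested genes (30 of 11317). At an unadjusted p below 0.05, 0 of the 8 passed in edgeR, DESeq2 or limma-voom, against 9.3% of all tested genes in edgeR. All 8 log2 fold changes lay above 0, between 0.01 for Prmt3 and 0.10 for Prmt9, where 50.6% of tested genes lay above 0. Their median was 0.07 and that of all tested genes was 0.0013. The 8 genes vary together across libraries to some degree, as described below, so their shared sign is not 8 separate measurements.

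How large a difference the data leave room for can be read from the 95% intervals. For 6 of the 8 genes the whole interval lay within 1.2-fold either way, as it did for 59.1% of all tested genes. The 2 exceptions were the genes with the fewest counts, Prmt2 and Prmt9. Prmt2 had 151 to 223 counts per library, and its interval ran from 0.891-fold to 1.27-fold. Prmt9 had 346 to 466 counts, and its interval ended at 1.21-fold.

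**Figure D1:**
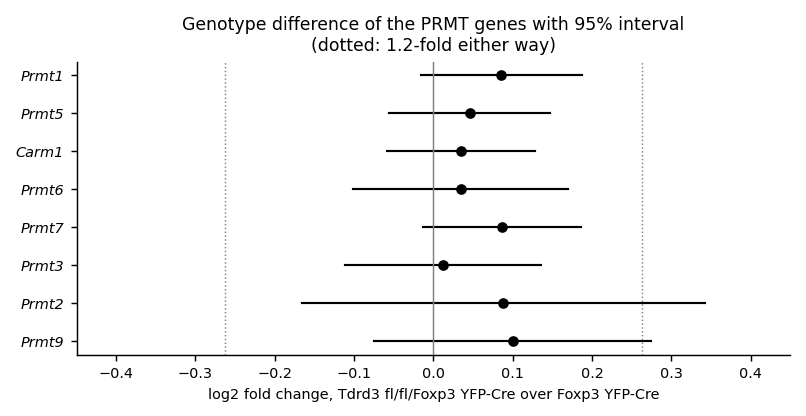
Log2 fold change of each PRMT gene (horizontal axis, Tdrd3 fl/fl/Foxp3 YFP-Cre over Foxp3 YFP-Cre, 4 libraries each) with its 95% interval from edgeR; dotted lines mark 1.2-fold either way. All 8 points lie above 0 and all 8 intervals include 0, and those of Prmt2 and Prmt9 cross a dotted line.

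Prmt1 encodes the main type I enzyme of mammalian cells, which makes most of their asymmetric dimethylarginine and deposits it on histone H4. The gene (ENSMUSG00000109324) spans chromosome 7 from 44624620 to 44635992 on the minus strand in the GENCODE annotation of GRCm39, the source of all positions given here. Its RNA stood at 274, 279, 309 and 303 CPM in the libraries labelled WT1 to WT4, and at 318, 293, 295 and 329.6 CPM in those labelled KO1 to KO4. The 2 lowest libraries were WT1 and WT2 and the 2 highest were KO4 and KO1, while among the other 4 the libraries labelled WT3 and WT4 lay above KO3 and KO2. The means were 291 ± 17.2 CPM in WT and 309 ± 17.8 CPM in KO libraries (SD, n = 4). This is a 1.06-fold difference with a 95% interval of 0.989-fold to 1.14-fold (log2 fold change 0.09, SE 0.0486, unadjusted p = 0.0946, adjusted p = 0.652). The two-sided exact permutation test over the 70 ways to divide the libraries gave p = 0.2. Without the library labelled WT3 the log2 fold change was 0.12 (unadjusted p = 0.0294, adjusted p = 0.438), and without KO2 it was 0.11 (unadjusted p = 0.0483, adjusted p = 0.457). It was 0.056 without WT1 (unadjusted p = 0.294), 0.052 without KO4 (unadjusted p = 0.321) and 0.014 without KO1 and KO4 (unadjusted p = 0.813).

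Carm1, also called Prmt4, encodes the type I enzyme that methylates histone H3 and transcriptional coactivators. The gene (ENSMUSG00000032185) spans chromosome 9 from 21458056 to 21503919 on the plus strand. It was the steadiest of the 8 genes, with a coefficient of variation of 3.85% over the 8 libraries where the median tested gene had 7.49%. The libraries labelled WT1 to WT4 held 153, 159, 155 and 159 CPM, and those labelled KO1 to KO4 held 171, 152, 156 and 163 CPM. KO1 was the highest and KO2 the lowest of all 8 libraries, so the WT values lay inside the KO range. The means of 157 ± 2.83 CPM in WT and 160.5 ± 8.30 CPM in KO libraries (SD, n = 4) gave a 1.02-fold difference (95% interval 0.960-fold to 1.09-fold, log2 fold change 0.04, SE 0.0445, adjusted p = 0.889; two-sided exact permutation test, p = 0.457). Without KO1 and KO4 the log2 fold change was −0.02. The Carm1 counts were not whole numbers in any library, which the estimation step gives where it divides reads among features, and 1025 bp of its exons overlap those of Yipf2 on the opposite strand.

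The other 3 type I genes encode enzymes with narrower known targets. Prmt3 (ENSMUSG00000030505) spans chromosome 7 from 49428083 to 49510996 on the plus strand, Prmt6 (ENSMUSG00000049300) spans chromosome 3 from 110153425 to 110158314 on the minus strand, and Prmt2 (ENSMUSG00000020230) spans chromosome 10 from 76043044 to 76074260 on the minus strand. PRMT3 is a cytosolic enzyme whose main substrate is the ribosomal protein encoded by Rps2. Its RNA was at 62.6 ± 3.74 CPM in WT and 63.1 ± 2.96 CPM in KO libraries (SD, n = 4; log2 fold change 0.01, SE 0.0590, adjusted p = 0.967), with 59.8 to 67.9 CPM in WT spanning the 60.4 to 67.0 CPM in KO. PRMT6 is a nuclear enzyme that methylates histone H3, and Prmt6 was at 45.7 ± 3.05 CPM in WT and 46.9 ± 2.17 CPM in KO libraries (log2 fold change 0.03, SE 0.0645, adjusted p = 0.930). Of its 8 values 7 were not whole, and 984 bp of its exons overlap the long non-coding RNA C130013H08Rik on the opposite strand. PRMT2 is a weakly active enzyme with an SH3 domain. Prmt2, at 12.5, 11.0, 13.4 and 14.2 CPM in WT1 to WT4 and 16.2, 13.0, 13.7 and 11.5 CPM in KO1 to KO4, was the most variable of the 8 between libraries, with a coefficient of variation of 12.4%. Its highest and its second lowest values were both KO libraries, and the difference of 0.09 on the log2 scale was smaller than its SE of 0.121 (adjusted p = 0.898).

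Prmt5 encodes the main type II enzyme, which works as a complex with WDR77. Its RNA stood at 176, 173, 189 and 202 CPM in the libraries labelled WT1 to WT4 and at 197, 192, 186 and 188 CPM in those labelled KO1 to KO4. The KO values all lay within the WT range. The means were 185 ± 13.2 CPM and 191 ± 4.67 CPM (SD, n = 4; log2 fold change 0.05, SE 0.0483, 95% interval 0.962-fold to 1.11-fold, adjusted p = 0.862). Wdr77 itself was at 105 ± 11.2 CPM in WT and 106 ± 3.65 CPM in KO libraries (log2 fold change 0.01, adjusted p = 0.980). Prmt5 (ENSMUSG00000023110) spans chromosome 14 from 54744636 to 54754982 on the minus strand, 32.9 Mb from Tdrd3. Prmt9 (ENSMUSG00000037134), on chromosome 8 from 78275532 to 78309818 on the plus strand, encodes the other type II enzyme, which methylates a splicing factor. It was at 27.1, 25.2, 24.8 and 26.3 CPM in WT and 26.1, 29.2, 31.1 and 24.4 CPM in KO libraries. KO2 and KO3 were the 2 highest libraries and KO4 was the lowest, and the log2 fold change of 0.10 (SE 0.0833, adjusted p = 0.821) was the highest among the 8 genes. Without KO3 it was 0.042 (unadjusted p = 0.631), without KO4 0.16 (unadjusted p = 0.0807), and without KO1 and KO4 0.22 (unadjusted p = 0.0268, adjusted p = 1.00).

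Prmt7, the gene of the monomethylating enzyme, was the only 1 of the 8 whose genotypes did not overlap. It stood at 85.0, 82.2, 86.9 and 86.4 CPM in the libraries labelled WT1 to WT4 and at 90.2, 87.1, 93.3 and 91.1 CPM in those labelled KO1 to KO4. The gap between the highest WT library, WT3, and the lowest KO library, KO2, was smaller than the spread within either genotype. The means were 85.1 ± 2.11 CPM and 90.4 ± 2.57 CPM (SD, n = 4), a 1.06-fold difference with a 95% interval of 0.991-fold to 1.14-fold. The two-sided exact permutation test gave p = 0.0286, the smallest that 4 libraries against 4 allow, while edgeR's unadjusted p was 0.0857 (adjusted p = 0.630). Every KO library lay above every WT library in 2.25% of all tested genes, and in 1 of the 8 PRMT genes. Prmt7 (ENSMUSG00000060098) spans chromosome 8 from 106936779 to 106979556 on the plus strand, and its exons overlap those of Slc7a6os and Smpd3 on the opposite strand, by 840 and 381 bp.

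**Figure D2:**
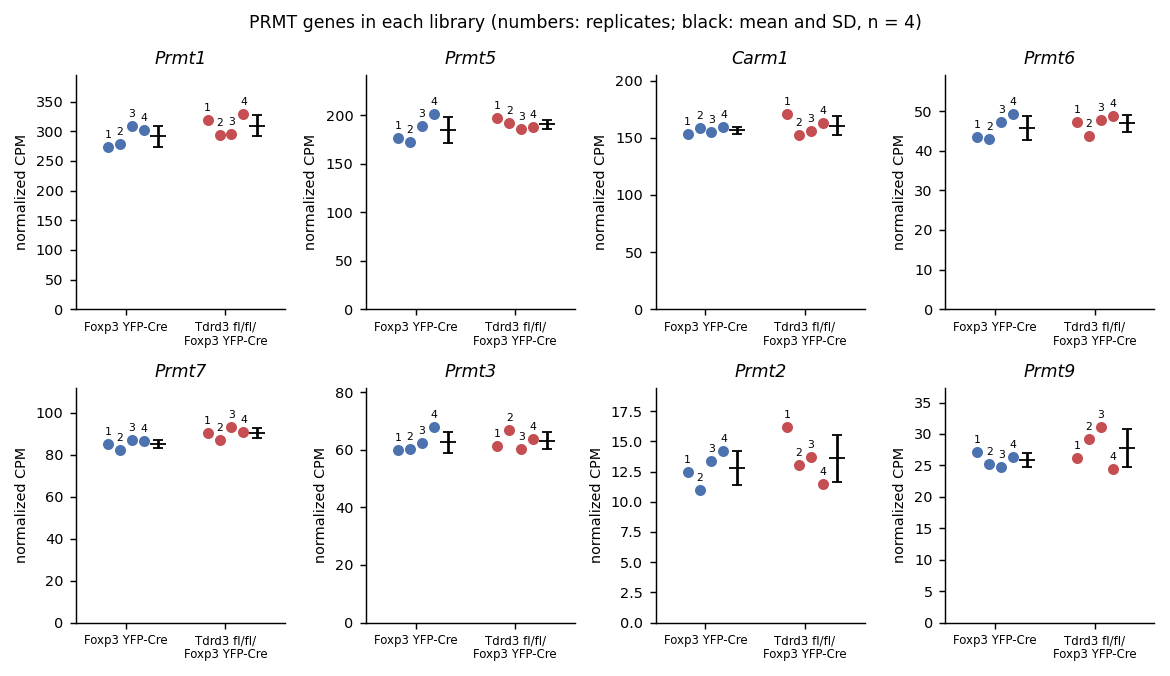
Normalized CPM (vertical axes, from 0) of each PRMT gene in 4 WT (Foxp3 YFP-Cre) and 4 KO (Tdrd3 fl/fl/Foxp3 YFP-Cre) libraries; each numbered point is 1 library and the black mark is the mean with its SD. The genotypes overlap for every gene except Prmt7, whose WT libraries end at 86.9 and whose KO libraries start at 87.1.

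Levels of different genes can be compared once each is divided by gene length, here the length of the merged exons. Only 1 of the 8 genes has deposited start and end positions equal to those in GENCODE. The length can therefore include sequence that was not counted. Prmt3, for example, ended at 49508014 in the deposited positions and at 49510996 in GENCODE. Prmt1 was highest, at 61.5 ± 3.85 CPM per kb (SD over 8 libraries), followed by Prmt5 at 43.5 ± 2.25 and Carm1 at 31.8 ± 1.22 CPM per kb. The 3 genes lay above 95.8%, 93.4% and 90.2% of tested genes, respectively. After a drop of 2.88-fold came Prmt6 at 11.0 ± 0.602, Prmt7 at 9.17 ± 0.372 and Prmt3 at 6.08 ± 0.303 CPM per kb. The lowest were Prmt2 at 2.67 ± 0.331 and Prmt9 at 2.65 ± 0.229 CPM per kb, with about 30% of tested genes below them (30.7% and 30.4%).

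Of the 7 pairs of neighbours in this order, 6 differed in the same direction in all 8 libraries (two-sided exact sign-flip permutation test within libraries, p = 0.00781, the smallest that 8 libraries allow, adjusted p = 0.00911 over the 7 pairs). The test covers the spread between libraries, not the choice of length. Prmt2 and Prmt9 could not be told apart (ratio 1.00, Prmt2 higher in 3 of 8 libraries, exact p = 0.945). With the longest annotated coding transcript as the length, Prmt1, Prmt5 and Carm1 kept their places at 97.7, 66.0 and 45.5 CPM per kb, but Prmt7 at 20.8 and Prmt3 at 20.3 moved above Prmt6 at 15.2, and Prmt9 at 9.37 moved above Prmt2 at 5.63. The order below the top 3 therefore depends on which transcript length is used.

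The mix of PRMT RNA was close to equal in the genotypes. Prmt1 made up 36.2% ± 0.783 of the summed CPM per kb of the 8 genes in WT and 36.8% ± 1.12 in KO libraries (SD, n = 4). Prmt5 made up 25.9% ± 0.693 and 25.7% ± 0.758, and Carm1 19.1% ± 0.855 and 18.7% ± 0.427. Within a library Prmt1 was 1.90 ± 0.110 times Carm1 per kb in WT and 1.97 ± 0.0738 times in KO libraries. The summed CPM per kb ran from 158 to 173 in WT and from 167 to 178 in KO libraries, which overlap.

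**Figure D3:**
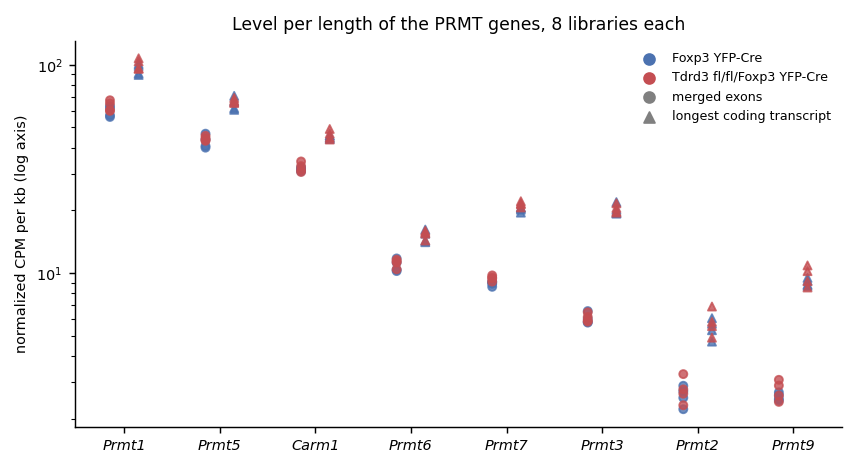
Level of each PRMT gene in CPM per kb (vertical axis, logarithmic) in the 8 libraries, divided by the merged exon length (circles) or by the longest coding transcript (triangles), colored by genotype. Prmt1, Prmt5 and Carm1 hold the top 3 places with either length, and the genotypes overlap for every gene except Prmt7.

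Across the 8 libraries the 28 pairs of PRMT genes had a median Pearson r of 0.38 on log2 CPM, and 24 of the 28 were above 0. The pair most alike was Prmt1 with Prmt6 (r = 0.78), and the pair least alike was Carm1 with Prmt9 (r = −0.41). Among 11316 other tested genes, those whose levels followed Prmt1 most closely were Psmd7, a subunit of the proteasome lid (r = 0.98), Piwil2 (r = 0.97) and Cep290 (r = 0.96). Those nearest to Carm1 were Dus4l (r = 0.97), Pdcd1lg2, which encodes PD-L2 (r = 0.96), and Gm32687 (r = 0.96). By rank, Pdcd1lg2 followed Carm1 less closely (Spearman rho = 0.76). The log2 fold change of Pdcd1lg2 was 0.22 with all libraries and 0.023 without KO1, the highest library for Carm1. The correlations are descriptions over 8 libraries that share both genotypes, and some high values are found among this many genes in any case.

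The genes around the PRMTs were described by lists of partners, methyl donor enzymes, erasers, readers and substrates. Among 11 tested partners and inhibitors, 0 passed edgeR's adjusted test and 1 had an unadjusted p below 0.05, where 0.265% and 9.3% of all tested genes did so, a share near that of the list. That gene was Ncoa3, a coactivator that works with CARM1 (348 ± 23.0 CPM in WT and 324 ± 13.0 CPM in KO libraries, log2 fold change −0.10, adjusted p = 0.499). Tob1, a relative of the PRMT1-binding BTG proteins, was next (log2 fold change −0.13, adjusted p = 0.578). The list's median was −0.01. The 2 other enzymes measured, Mettl23 and Ndufaf7, had log2 fold changes of 0.09 and −0.03 (adjusted p = 0.830 and 0.954). Of these 2, 0 passed the adjusted test and 0 had an unadjusted p below 0.05. Among all tested genes, 0.265% and 9.3% did so.

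Of 9 tested methyl donor genes, 1 passed the adjusted test, against 0.265% of all tested genes. Ahcyl2 fell from 279 ± 35.7 CPM in WT to 209.8 ± 26.4 CPM in KO libraries (SD, n = 4; log2 fold change −0.41, SE 0.0823, adjusted p = 0.0399). It stood at 307, 306, 271 and 232 CPM in WT1 to WT4 and at 187, 237, 228 and 187 CPM in KO1 to KO4, so that WT4 lay below KO2 (two-sided exact permutation test, p = 0.0571). AHCYL2 resembles the enzyme that clears S-adenosylhomocysteine but is best known for regulating ion transport. The call was lost in DESeq2 (adjusted p = 0.104) and when any 1 of WT1, WT2, WT3, KO1, KO3 or KO4 was left out (adjusted p from 0.0585 to 0.234, log2 fold changes from −0.45 to −0.36). Without KO1 and KO4 the log2 fold change was −0.26 (adjusted p = 1.00). Mat2a, which makes S-adenosylmethionine, and Ahcy, which clears its product, both had log2 fold changes of −0.03 (adjusted p = 0.905 and 0.911), and the list's median was −0.01.

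Of 7 tested Tudor readers, 0 passed the adjusted test, and 2 had an unadjusted p below 0.05, where 0.265% and 9.3% of all tested genes did so. One was Tdrd3. The other was Tdrkh, a Tudor and KH domain protein of the piRNA pathway, at 24.6, 24.2, 27.1 and 28.8 CPM in WT1 to WT4 and 35.4, 31.6, 31.3 and 32.6 CPM in KO1 to KO4. Its KO libraries all lay above its WT libraries, as in 2.25% of all tested genes (log2 fold change 0.32, SE 0.0767, adjusted p = 0.0848). Tdrkh passed in DESeq2 (adjusted p = 0.0406) and without WT4 (adjusted p = 0.0337). It did not pass without any other single library (adjusted p from 0.0541 to 0.392) or without KO1 and KO4 (log2 fold change 0.26, adjusted p = 1.00). Of 3 tested genes for removal or turnover of methylarginine, 0 passed and 0 had an unadjusted p below 0.05. Among all tested genes, 0.265% and 9.3% did so, so a count of 0 of 3 does not set this list apart. Padi2 and Ddah2 had log2 fold changes of 0.12 and 0.07.

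Of 35 tested RNA-binding substrates, 0 passed the adjusted test and 2, Rps2 and Rps3, had an unadjusted p below 0.05, where 0.265% and 9.3% of all tested genes did so. Rps2, the substrate of PRMT3, stood at 2722 ± 103 CPM in WT and 2956 ± 72.9 CPM in KO libraries (log2 fold change 0.12, SE 0.0352, adjusted p = 0.188). Every KO library lay above every WT library for Rps2, as in 2.25% of all tested genes. Rps3 had a log2 fold change of 0.08 (adjusted p = 0.530). Reads of ribosomal protein genes can be divided with their processed pseudogenes. The list's median was 0.02.

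Of 16 tested substrates linked to transcription, 0 passed the adjusted test, where 0.265% of all tested genes did so. An unadjusted p below 0.05 was found for 3, Runx1, Foxp3 and Ncoa3, against 9.3% of all tested genes. Ncoa3 is also counted among the partners, and the study had reported Foxp3 as lower in KO cells. Runx1, a partner of FOXP3 and a substrate of PRMT1, was at 67.7 ± 6.46 CPM in WT and 81.0 ± 6.48 CPM in KO libraries (SD, n = 4; log2 fold change 0.26, adjusted p = 0.134), a difference that passed without WT4 (adjusted p = 0.0154) and without KO2 (adjusted p = 0.0430). Without KO1 and KO4 it was 0.16 (adjusted p = 1.00). Runx1 did not pass in DESeq2 (adjusted p = 0.0655) or without any other single library (adjusted p from 0.134 to 0.524). Foxo1, another substrate of PRMT1, was at 226 ± 10.4 and 229 ± 5.09 CPM (adjusted p = 0.935). The list's median was 0.00069. In bulk RNA, fewer cells of a type and less RNA per cell cannot be told apart.

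**Figure D4:**
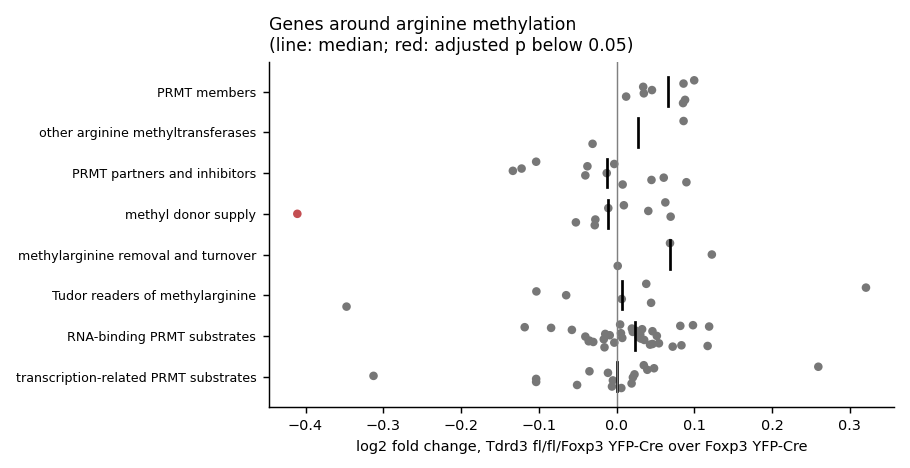
Log2 fold change (horizontal axis, Tdrd3 fl/fl/Foxp3 YFP-Cre over Foxp3 YFP-Cre) of every tested gene on the lists around arginine methylation, 1 point per gene, with the median of each list as a black line; Ahcyl2, in red, is the only gene past an adjusted p of 0.05. The 8 PRMT genes lie between 0.01 and 0.10.

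PRMT RNA is known to rise with genes of proliferation and growth in activated T cells. Of 15 such genes, 0 passed the adjusted test and 1 had an unadjusted p below 0.05. Among all tested genes, 0.265% and 9.3% did so. The list's gene below 0.05 was Odc1 (log2 fold change −0.08, adjusted p = 0.499). Myc was at 0.08 (adjusted p = 0.586). The summed level of the list ran from 8097 to 8281 CPM in WT and from 7966 to 8153 CPM in KO libraries. Among markers of induced regulatory T cells, Lrrc32 and Nt5e had log2 fold changes of −0.38 and 0.20 (adjusted p = 0.102 and 0.139). Of the 8, 0 passed the adjusted test and 4 had an unadjusted p below 0.05 (1 higher and 3 lower in KO libraries). Among all tested genes, 0.265% and 9.3% did so. Every KO library lay below every WT library for Lrrc32, and the share of all tested genes with this pattern was not counted. Lrrc32 passed without KO2 (adjusted p = 0.00947). It did not pass in DESeq2 (adjusted p = 0.321) or without any other single library (adjusted p from 0.0716 to 0.436). Without KO1 and KO4 its log2 fold change was −0.16 (adjusted p = 1.00). The 8 induced regulatory T cell markers summed to 3793 to 3963 CPM in WT and 3583 to 3719 CPM in KO libraries. These ranges do not overlap. The log2 fold changes of the list lay above 0 for 3 genes and below 0 for 5, with a median of −0.04. Foxp3, Lrrc32 and Nt5e, with means of at most 112 CPM, hold only a small part of these sums. The part of the difference between the sums in the PRMT values was not tested. The methyl donor genes also summed to separate ranges, 1366 to 1417 CPM in WT and 1286 to 1350 CPM in KO libraries. How often sums of such lists separate was not counted.

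The directions held for most genes when libraries were left out. With any 1 library left out, Prmt1, Carm1, Prmt5, Prmt6, Prmt7 and Prmt9 stayed above 0, and Prmt2 and Prmt3 crossed to −0.0061 and to values as low as −0.020. Without the library labelled WT3, all 8 lay above 0, from 0.01 for Prmt3 to 0.12 for Prmt1.

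**Figure D5:**
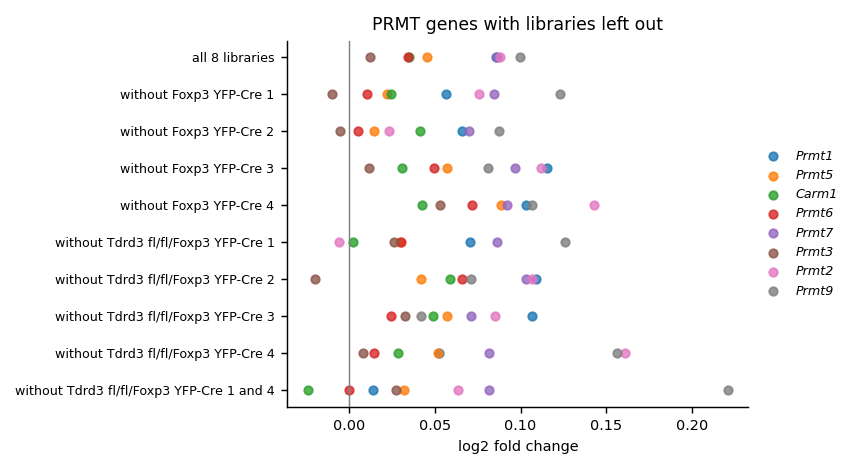
Log2 fold change of the 8 PRMT genes (horizontal axis) with all 8 libraries and with the named libraries left out (vertical axis; numbers are replicates). The points of Prmt7 stay between 0.07 and 0.10, and Prmt9 moves to 0.22 without Tdrd3 fl/fl/Foxp3 YFP-Cre 1 and 4.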

How the data were processed

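RNA from 8 samples was sequenced, and the replicates were taken as separate samples as the labels give them. The study's methods name fewer biological replicates per genotype, from independent mice. Whether every library comes from a separate mouse is therefore not known. The p-values measure the spread between these libraries. The authors aligned reads to GRCm39 with STAR 2.7.8a and deposited estimated counts per gene from Partek's E/M algorithm, after a filter that is not described; 43.0% of the values are not whole, and strand and annotation version are not given in the sources used here. Counts were rounded to whole numbers, filtered by filterByExpr (minimum count 10), scaled by TMM (factors 0.993 to 1.004) and compared between genotypes, with no covariate, in edgeR 4.0.16 (quasi-likelihood F-test, two-sided, Benjamini-Hochberg over 11317 genes; R 4.3.3). The fit was tested on simulated data. CPM are TMM-normalized. Lengths came from GENCODE mouse release 39 on GRCm39. Exact tests used log2(CPM + 0.5). Libraries of a genotype were no duplicates of each other (chi-square per degree of freedom 2.58 to 6.11). Correlations of same-numbered libraries' deviations are given under the dependence on the processing. Floors cover counting error only. No value columns without a sample were used (0).

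The members and lists were chosen with earlier results of these data known. Named are all members, Tdrd3, Foxp3, each list's genes past the adjusted threshold or otherwise its 2 smallest unadjusted p, and the 3 genes most correlated with Prmt1 and with Carm1; Wdr77, Mat2a, Ahcy and Foxo1 were added for their roles. Alternatives were other normalizations, other filters, DESeq2 1.42.0, limma-voom 3.58.1, a replicate block, and libraries left out.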

Additional observations from a re-analysis of the deposited data

Results flagged for a closer look

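No PRMT gene had a library that stood far from the rest of its genotype. Among 33 named genes, checked in both genotypes (66 groups of 4 libraries), 4 groups held a library separated from the other 3 by most of the group's range, where chance gives about 1 in 20. Mettl23 was at 31.2 CPM in KO2, against 29.6 to 29.8 CPM in the other KO libraries. Runx1 was at 77.3 CPM in WT4, against at most 65.1 CPM in the other WT libraries. Cd3e was at 160.4 CPM in KO3, against at most 142 CPM in the other KO libraries. Cd8a was at 11.3 CPM in the library labelled WT3, against at most 1.37 CPM in the other WT libraries.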

How the results depend on the processing

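In each of 16 alternative fits, 0 of the 8 PRMT genes passed the adjusted test (lowest adjusted p 0.438), and 122 of 128 log2 fold changes kept their direction. With 1 library left out, Prmt2 ran from −0.0061 (without KO1) to 0.16 and Prmt3 from −0.020 (without KO2) to 0.053, Prmt3 also turning without WT1 (−0.010) and WT2 (−0.0054). Without KO1 and KO4, Carm1 (−0.024) and Prmt6 (−0.00029) turned. At an unadjusted p below 0.05, Prmt1 passed without WT3 and without KO2, and Prmt9 without KO1 and KO4. The count of all genes that passed, 30, was 81 in DESeq2, 87 with the replicate block, 3 without KO1 and KO4, and 6 to 162 when 1 library was left out (6 without KO1, 162 without KO2). The order of levels kept 3 of 8 places with the longest coding transcript.

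No pairing of libraries by replicate number was seen. Same-numbered deviations correlated at −0.046 to 0.069, and 1 of 8 libraries was closest to its own number. With 4 libraries per genotype, these values cannot exclude a pairing. The replicate block changed no PRMT call, and Foxp3 (adjusted p = 0.0161), Runx1 (0.0451) and Lrrc32 (0.0178) passed with it. For 31 other named genes, added after seeing the data, 478 of 489 values kept their direction. With 1 library left out, Ndufaf7 ran from −0.11 to 0.037, Ddah2 from −0.13 to 0.20 and Cd79b from −0.36 to 0.0055. Without KO1 and KO4, Ndufaf7 (0.059), Padi2 (−0.013), Cd79b (0.071), Klrk1 (−0.49), Dus4l (−0.024), Pdcd1lg2 (−0.16) and Gm32687 (−0.082) turned. Differences of about 0.1 on the log2 scale are near the SE of genes with as few counts as Prmt2 and Prmt9 and were not detectable there. Differences of this size did not pass in PRMT genes with smaller SEs either. Prmt1 and Prmt7, with SEs of 0.0486 and 0.0475, had log2 fold changes of 0.09 (adjusted p = 0.652 and 0.630).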
